A study of Fundulus heteroclitus with 8 samples.

Results

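The custom mummichog array carried 6 probes, of 7157 in all, whose product name held the words insulin-like growth factor or IGF-binding, and these were taken as the family described here. They stand for 5 products: insulin-like growth factor binding protein 1 (IGFBP-1), insulin-like growth factor binding protein 7 (IGFBP-7), the acid labile chain of the IGF binding complex, CYR61 (also called IGF-binding protein 10) on 2 probes, and the cation-independent mannose-6-phosphate receptor, which is the IGF-II receptor. None of the 6 names is that of a growth factor itself, so the family as measured consists of binding proteins, a binding partner in plasma and a receptor. The names come from the array design and often cite a similar protein of another species. The RNA was from testis, taken from adult males of the mummichog, a killifish of salt marshes (Fundulus heteroclitus). Of the 8 fish, 4 were labelled as controls and 4, called DHT50, had a waterborne exposure of 21 days to 5α-dihydrotestosterone (DHT) at 50 µg/L. DHT is a potent androgen that, unlike testosterone, is no substrate of aromatase. Each fish was hybridised to 1 single-colour array, and the labels call the samples biological replicates from individuals.

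Insulin-like growth factors are small secreted hormones related to insulin, made in the liver under the control of growth hormone and locally in many tissues, the testis included. Binding proteins hold them in plasma and at the cell surface and set how much reaches the receptors, and in mammals the acid labile subunit joins a growth factor and a binding protein into a long-lived complex. IGFBP-7 and CYR61 are distant relatives of the classical binding proteins with only weak affinity for the growth factors, and the IGF-II receptor takes the growth factor into lysosomes rather than passing on a growth signal.

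Values are levels, which are the log2 processed signal minus the 75th percentile of the array, so that 0 means as bright as that percentile and -1 means 1 log2 unit dimmer. The percentile itself, the brightness of an array, was lowest in DHT50 2 at 7.97 and highest in control 1 at 11.21, which is a 9.44-fold range. Brightness was not balanced between the groups. It was 9.99 to 11.21 in controls, and 10.95, 7.97, 9.13 and 9.50 in DHT50 1 to 4. Between 4742 and 6227 of the 7157 probes had both of their spots well above background on an array. Among testis genes, DEAD-box protein 4 (vasa, of germ cells) was well above background on 8 of 8 arrays, Cytochrome P450 17A1 on 7 and Steroidogenic acute regulatory protein on 6. Probes of liver and plasma proteins, 92 in all, held 5.11% of the summed signal in control 1 and 0.0755% to 0.461% on the other 7 arrays, and 26 probes of blood cell proteins held 0.227% to 0.546%.

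No member of the family passed the test between DHT50 and control fish. The linear models (limma, with Benjamini-Hochberg adjustment over all 5989 tested probes) called 0 of the 6 members and 0% of all tested probes at an adjusted p under 0.05. At an unadjusted p under 0.05 there were 0 of the 6 members, against 282 probes or 4.71% of all tested. The mean in DHT50 lay above that in control for 6 of 6 members, where 53.6% of all tested probes did so. This count holds CYR61 on 2 probes of different contigs whose levels followed each other (r = 0.997), so the 6 are not independent. Whether those 2 probes measure the same transcript was not tested. The changes of the 6 members ran from 0.038 to 0.40 on the log2 scale with a median of 0.17, against a median of 0.059 over all tested probes. Levels of the 2 groups overlapped for each of the 6 members, and 2.22% of all tested probes had groups that did not overlap. All 6 members met the minimum for testing of 4 arrays well above background.

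**Figure D1:**
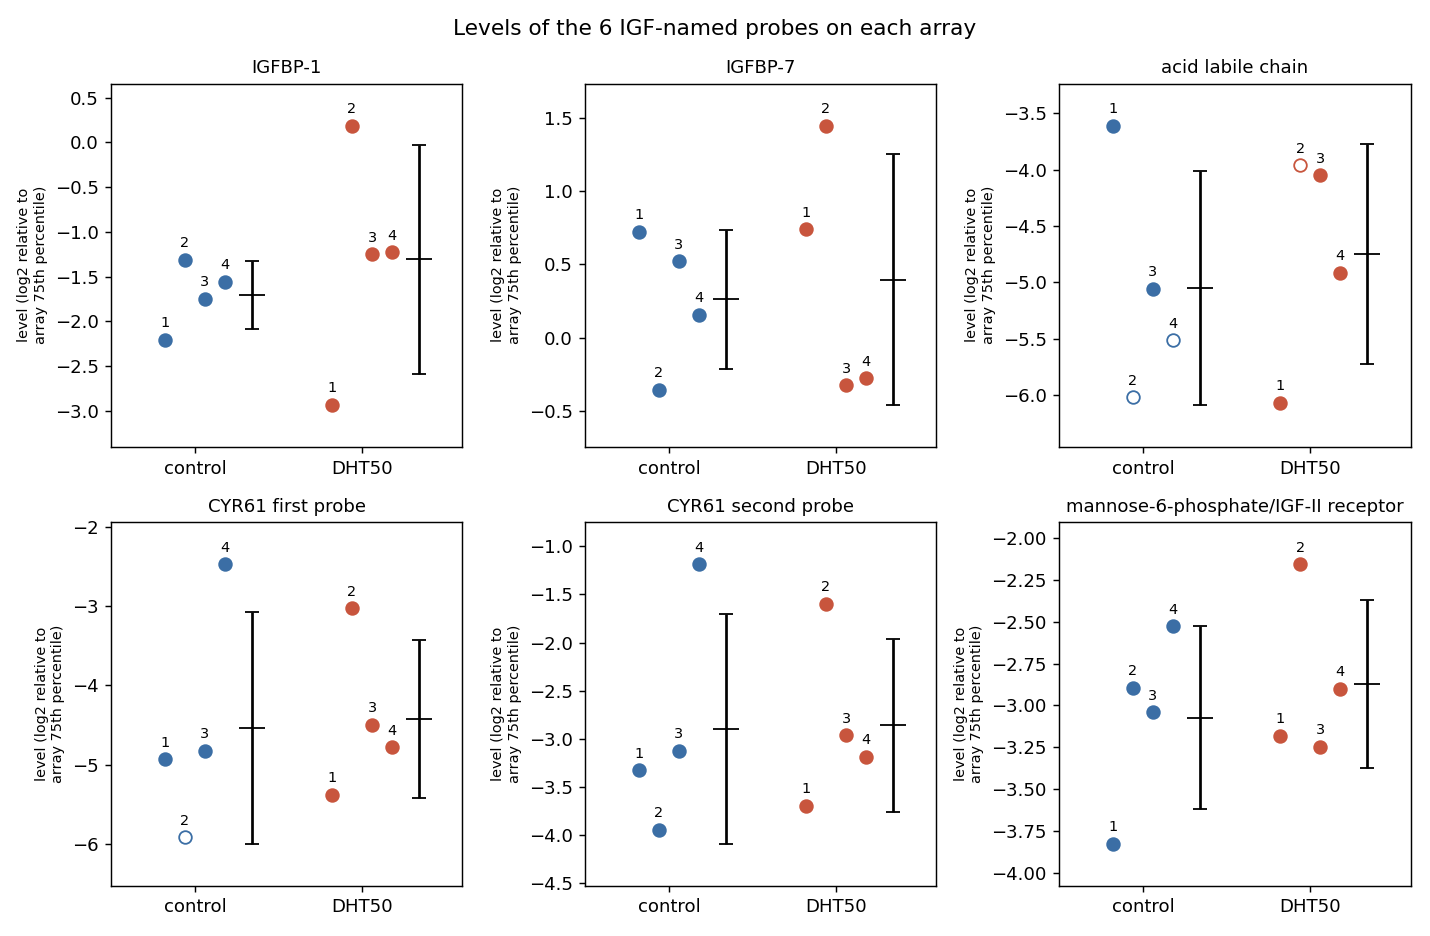
Levels (log2 processed signal relative to the 75th percentile of the array, y axis) of the 6 probes in control and DHT50 fish, with 1 numbered point per array, open points where fewer than 2 spots were well above background, and bars for mean ± SD (n = 4). The groups overlap in each panel, and DHT50 2 is the highest or second highest of the 8 arrays in all 6.

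The shared upward direction depended on single arrays. DHT50 2, the dimmest, was the highest of the 8 arrays for 3 members and the second highest for the other 3, as it was for 41.3% of all tested probes. Without DHT50 2 the median change of the 6 members was -0.16, and without control 2 it was -0.046. With array brightness in the fit the median was -0.34. DHT50 2 to 4 were dimmer than every control, so a fit with brightness cannot fully separate it from the group. By the position of each array on the slide, row 1, which held control 1 and DHT50 1 to 3, gave a median change of 0.60 by itself, and row 2, which held the other 3 controls and DHT50 4, gave -0.23. Blocking on row gave 0.10.

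IGFBP-1, a binding protein that the liver releases in fasting and stress and that is also made in fish, showed the largest change of the 6 members and still did not pass. Its levels were -2.21, -1.31, -1.75 and -1.56 in controls 1 to 4. In DHT50 1 to 4 they were -2.94, 0.19, -1.25 and -1.23. Of the DHT50 arrays, 3 lay above every control and the other, DHT50 1, lay below every control. The means were -1.71 ± 0.38 (SD, n = 4) in controls and -1.31 ± 1.28 (SD, n = 4) in DHT50, and the change was 0.40 ± 0.59 (log2 change ± SE, adjusted p = 0.802, 95% interval -0.92 to 1.72). The change was 0.94 without DHT50 1 (unadjusted p = 0.0610, limma) and -0.099 without DHT50 2. With DHT50 1 left out, every DHT50 array was dimmer than every control, so that fit cannot tell group from brightness. Before scaling, the processed signal of IGFBP-1 varied less than array brightness and was lower in DHT50, at 324 to 511 in controls and 237 to 312 in DHT50. The mean was higher in DHT50 after scaling to the array percentile. DHT50 2 to 4 were dimmer arrays than every control, and the share of all probes lower in DHT50 before scaling was not computed. Over the 8 arrays the processed signal lay between 237 (DHT50 3) and 511 (control 1), a 2.16-fold range, while array brightness spanned 9.44-fold. Its level was highest on the dimmest array, DHT50 2, and lowest on the 2 brightest, DHT50 1 and control 1, and with brightness in the fit its change was -0.49 (unadjusted p = 0.102). The second of its 2 spots was brighter than the first on 8 of 8 arrays, with a median gap of 0.29 on the log2 scale, against 0.095 over all tested probes.

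**Figure D2:**
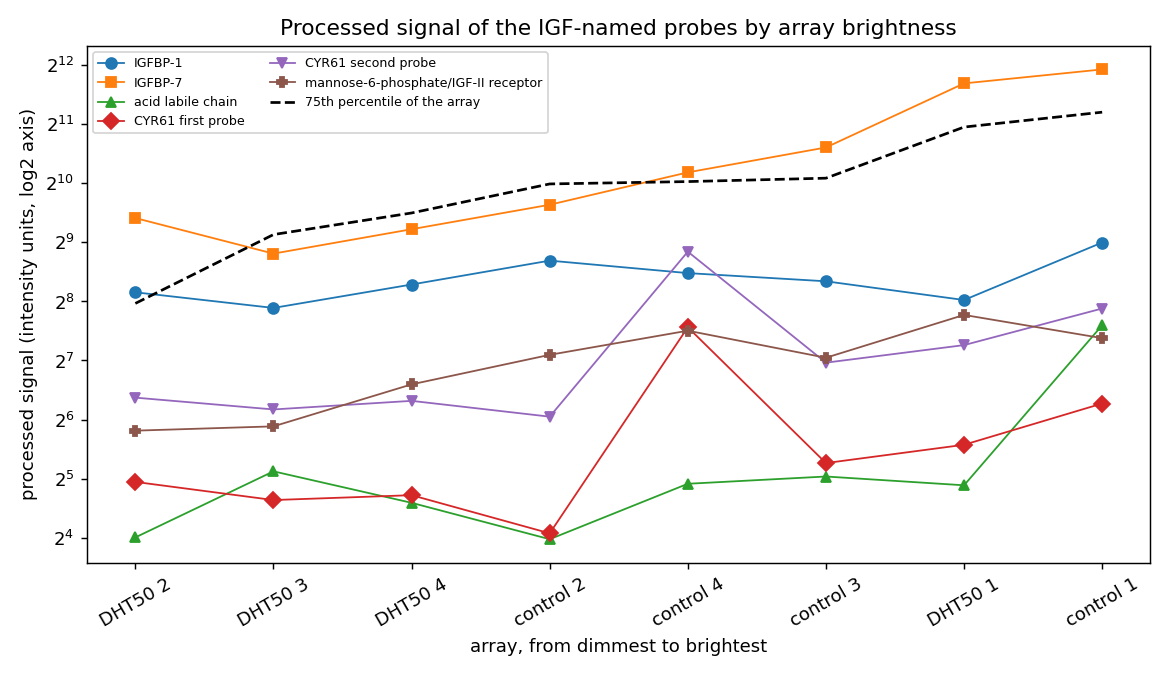
Processed signal of each probe (mean of 2 spots, intensity units on a log2 axis) on the 8 arrays ordered from the dimmest to the brightest, with the 75th percentile of each array as a dashed line. IGFBP-1 stays between 237 and 511 while the percentile climbs, IGFBP-7 is highest on the 2 brightest arrays, and both CYR61 probes peak in control 4. Heights of different probes are not comparable.

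IGFBP-7, a matrix protein of blood vessels and connective tissue, was brightest on the 2 brightest arrays. Its processed signal was 449 in DHT50 3, the lowest, and 3901 in control 1, the highest, which is an 8.69-fold range. Its levels were 0.72, -0.35, 0.52 and 0.15 in controls 1 to 4. In DHT50 1 to 4 they were 0.74, 1.45, -0.32 and -0.28. DHT50 1 and DHT50 2 lay above every control, while DHT50 3 and DHT50 4 lay beside control 2, the lowest. The change was 0.13 ± 0.47 (adjusted p = 0.919, 95% interval -0.91 to 1.18), and it was -0.21 without DHT50 2 and -0.24 when slide row was a block. The SD of its levels was 0.47 in controls and 0.85 in DHT50, and its duplicate spots on an array differed by at most 0.10 on the log2 scale.

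The acid labile chain, made in mammals mainly by hepatocytes, had its highest processed signal in control 1, which was also the brightest array. Its processed signal was 194 in control 1 and 15.7 to 34.8 on the other 7 arrays. Liver and plasma protein probes stood at 5.11% of the summed signal on that same control 1 array. The median level of the 74 of them that were tested was 1.33 there against -3.92 to -2.06 on the other 7. Of the 92, each array had between 52 and 83 well above background. The part of these transcripts in the acid labile chain signal was not tested. Both spots were well above background in control 1 and control 3 and in DHT50 1, DHT50 3 and DHT50 4, and no spot was in control 2 or DHT50 2. In control 4 the spots disagreed, at 10.5 and 49.7. The levels were -3.61, -6.02, -5.05 and -5.51 in controls 1 to 4 and -6.07, -3.96, -4.05 and -4.92 in DHT50 1 to 4. Control 1 was the highest, but after scaling DHT50 2, at -3.96, and DHT50 3, at -4.05, lay close below it. DHT50 2 was a dim array on which this probe was not well above background. The change was 0.30 ± 0.62 (adjusted p = 0.858, 95% interval -1.09 to 1.69). Without control 1 it was 0.78, and within slide row 1, where control 1 is the only control, it was -1.08. With array weights in limma it was 1.01 (adjusted p = 0.223). That was the only setting in which the unadjusted p of any member fell under 0.05, at 0.0416. With array weights 1279 of all 5989 tested probes had an unadjusted p under 0.05, against 282 in the reported fit.

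**Figure D3:**
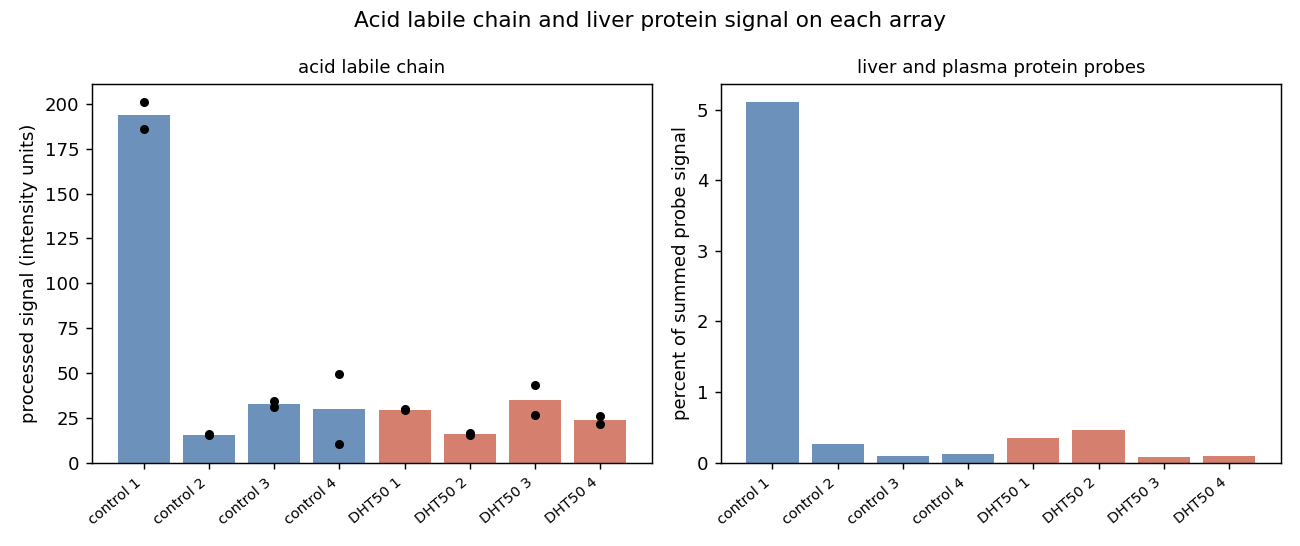
Left, processed signal of the acid labile chain (bars, mean of 2 spots, with each spot as a dot) and right, percent of the summed probe signal held by 92 liver and plasma protein probes, on each array (controls blue, DHT50 red). Control 1 stands at 194 on the left and 5.11% on the right, above the other 7 arrays in both. The left values are not scaled for array brightness, and control 1 was the brightest array.

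CYR61, a matrix protein of the CCN family that cells make quickly on stretch and growth factor stimulation, was highest in control 4 on both of its probes. On its first probe, at bases 230 to 279 of a contig, the levels were -4.94, -5.92, -4.83 and -2.47 in controls 1 to 4, and -5.38, -3.02, -4.50 and -4.78 in DHT50 1 to 4. On its second probe, at bases 392 to 442 of another contig, they were -3.33, -3.95, -3.13 and -1.19 in controls, and -3.69, -1.60, -2.96 and -3.18 in DHT50. Both probes put control 4 first, DHT50 2 second and control 2 last, and their levels followed each other over the 8 arrays (Pearson r = 0.997, on the same arrays and scaling). The first probe was not well above background in control 2. Processed signal on the second was 459 in control 4 and 66.2 to 236 elsewhere, so control 4 was high before scaling too. The changes were 0.12 ± 0.75 (adjusted p = 0.953, 95% interval -1.56 to 1.79) and 0.038 ± 0.64 (adjusted p = 0.984, 95% interval -1.41 to 1.48). Without control 4 they were 0.81 and 0.61, and without DHT50 2 they were -0.35 and -0.38. Control SDs of 1.46 and 1.19 put the probes at the 94.1 and 90.8 percentiles of tested probes for spread among controls, where IGFBP-1 stood at 33.6.

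Connective tissue growth factor, the CCN family member closest to CYR61 in its uses and a gene of the list of IGF release and related matrix proteins, was spread even more widely. Its levels were -6.07, -5.17, -3.28 and -1.60 in controls 1 to 4 and -5.72, -1.20, -3.93 and -3.52 in DHT50 1 to 4. DHT50 2 and control 4 were the highest 2 arrays, as for CYR61, while control 1 and DHT50 1, the brightest arrays, were the lowest. Its r with the CYR61 probes was 0.866 and 0.886 over the 8 arrays. The change was 0.44 ± 1.11 (adjusted p = 0.882, 95% interval -2.04 to 2.92), with -0.24 without control 1 and -0.36 without DHT50 2.

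**Figure D4:**
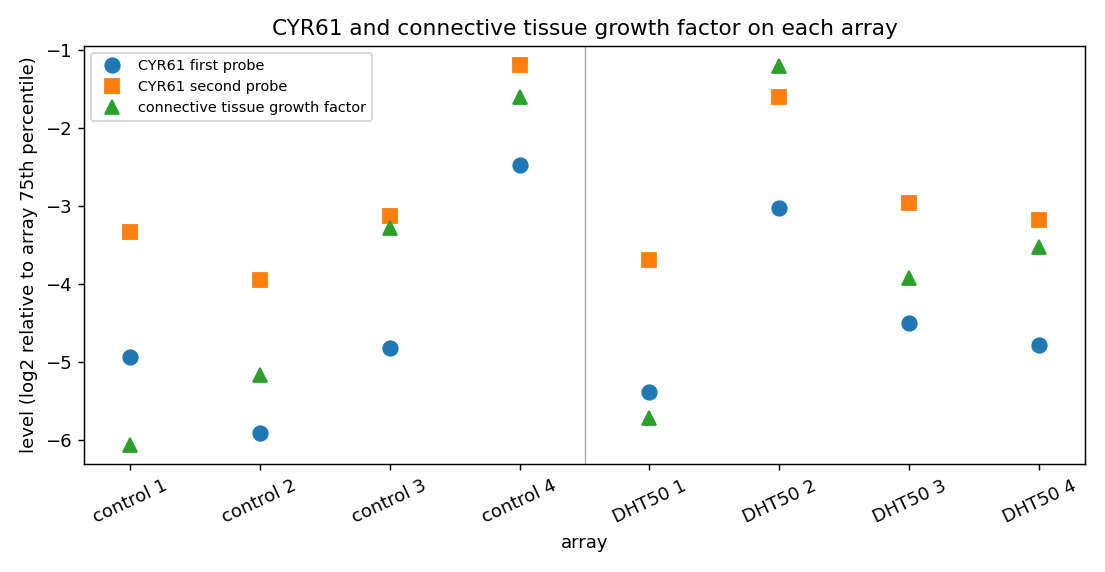
Levels (log2 relative to the 75th percentile of the array) of the 2 CYR61 probes and of connective tissue growth factor on each array, controls left of the line and DHT50 right. Control 4 and DHT50 2 are the highest 2 arrays for all 3 probes, and DHT50 1 lies among the lowest 2 for all 3.

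The mannose-6-phosphate and IGF-II receptor, which sorts lysosomal enzymes and, in mammals, clears IGF-II from the cell surface, had the smallest pooled SD of levels of the 6 members, at 0.52, although IGFBP-1 and IGFBP-7 varied less among controls. Its levels were -3.83, -2.89, -3.04 and -2.53 in controls 1 to 4 and -3.18, -2.16, -3.25 and -2.90 in DHT50 1 to 4. DHT50 2 lay above every control, control 1 below every DHT50 array, and the other 6 arrays lay together between -3.25 and -2.53. The change was 0.20 ± 0.39 (adjusted p = 0.850, 95% interval -0.68 to 1.08), and -0.051 without control 1 and -0.038 without DHT50 2. Within slide row 1 the change was 0.97 and within row 2 it was -0.081.

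**Figure D5:**
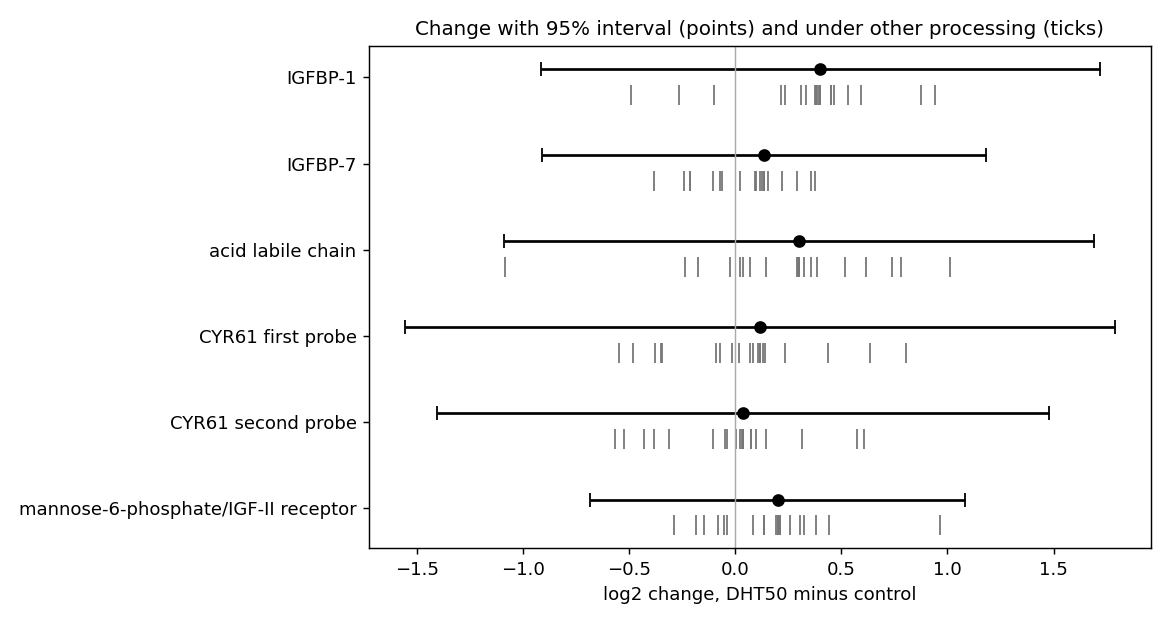
Log2 change (DHT50 minus control, x axis) of each probe with its 95% interval (point and bar), and below it 1 tick for each other processing setting or left-out array. Every interval spans 0, the narrowest running from -0.68 to 1.08, and each member has ticks on both sides of 0.

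For the 4 members well above background on all 8 arrays, the named probes with the most similar levels were found among 3036 such probes, as a description over 8 arrays that share their scaling. These are the highest of 3036 values for each member, with no background r beside them. IGFBP-1 was closest to carbonic anhydrase 2 (r = 0.992), then a probe named as similar to RIKEN cDNA 2600013N14 (r = 0.989) and TraD protein (r = 0.987). The IGFBP-1 level was highest on the dimmest array and lowest on the brightest ones, and the part of brightness in these r was not tested. IGFBP-7 was closest to Gamma-aminobutyric acid receptor-associated protein-like 1 (r = 0.970) and Rab GDP dissociation inhibitor beta (r = 0.903). The IGF-II receptor was closest to 60S ribosomal protein L10a (r = 0.958) and Adrenal medulla 50 kDa protein (r = 0.953). CYR61 on its second probe was closest to sterile alpha motif domain containing 12 (r = 0.946) and NIF3-like protein 1 (r = 0.907).

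Other genes of the pathway gave no call either. Of 7 probes for insulin, relaxin and growth hormone signals, 0 passed the adjusted threshold and 0 had an unadjusted p under 0.05, with 6 means higher in DHT50, 1 lower and a median change of 0.57. Over all tested probes 4.71% had an unadjusted p under 0.05 and 53.6% a higher mean, and the median change was 0.059. Insulin, the hormone of glucose uptake, was the lower one, with levels from -0.36 to 0.14 in controls and -1.63 to 0.07 in DHT50 and a change of -0.53 ± 0.43 (adjusted p = 0.685, limma). Insulin receptor substrate 2, the docking protein of the insulin and IGF receptors, lay between -2.44 and -1.73 in controls and between -2.21 and -0.51 in DHT50, with a change of 0.52 ± 0.40. Relaxin receptor 2, which in mammals answers insulin-like peptide 3 from Leydig cells, was at 0.64 ± 0.52. Somatostatin II was at 0.75 ± 0.51, somatostatin I, whose peptide holds back growth hormone, at 0.57 ± 0.43, and the precursor of growth hormone releasing factor and PACAP at 0.57 ± 0.40. DHT50 2 was the highest array for somatostatin I at 3.34, for somatostatin II at -2.82 and for insulin receptor substrate 2 at -0.51, as for IGFBP-1. With array brightness in the fit the changes were near 0, at -0.0013 for somatostatin I, 0.0023 for somatostatin II, 0.0010 for insulin receptor substrate 2, 0.027 for relaxin receptor 2 and 0.078 for the releasing factor and PACAP precursor, and insulin was at -0.26. Since brightness differed between the groups, that fit may also take up part of a group difference. GRB10, an adaptor that binds the insulin receptor, was the remaining probe, with a change of 0.15 ± 0.66.

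Inside the cell the picture was alike. Of 25 probes for insulin and IGF signalling, 21 were tested, 0 passed and 0 had an unadjusted p under 0.05, with 18 means higher in DHT50, 3 lower and a median change of 0.28, beside the same 4.71%, 53.6% and 0.059 over all tested probes. By its name pattern this list also took up HRAS-like suppressors and an Akt substrate, and insulin receptor substrate 2 and GRB10 counted in both lists. GRB2, an adaptor that links receptors to Ras, had the smallest p of the list on the brighter of its probes, with levels of 1.39 to 2.40 in controls and 2.24 to 3.01 in DHT50 and a change of 0.63 ± 0.35 (adjusted p = 0.685). A dimmer GRB2 probe, with a control mean of -2.94, changed by 0.61 ± 0.43 and had a larger p. Other values given for GRB2 are of the brighter probe. mTOR, the growth kinase downstream of insulin, was at 1.17 to 1.45 in controls and 0.52 to 1.22 in DHT50, a change of -0.46 ± 0.30. Phosphatidylinositol 3-kinase 3 was at 0.94 ± 0.62. With array brightness in the fit these were 0.30 for GRB2, -0.29 for mTOR and 0.015 for phosphatidylinositol 3-kinase 3. With the family members left out, the list of IGF release and related matrix proteins held only connective tissue growth factor and the mitochondrial protease HTRA2 (-0.35 ± 0.33). HTRA2 was taken up by its name pattern, and 0 of these 2 passed.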

How the data were processed

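Testis RNA of 8 fish was read on 1 slide of single-colour Cy3 arrays. Per the file headers, the authors' spot intensity is the processed signal of Agilent Feature Extraction 10.7.1.1, with background subtracted and the signal detrended within each array. Deposited median spot and background intensities served an alternative (normexp, offset 50). The authors' deposited log2 table has the same median of 7.47 on each array and correlated at 0.995 to 1.00 with the scanner signal. How it was normalized is not given in the sources used.

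Log2 intensity minus the 75th percentile of non-control spots was averaged over the 2 spots of a probe, without 28 outlier readings. A probe was tested with both spots well above background on at least 4 arrays. DHT50 and control were compared with limma 3.58.1 in R 4.3.3 (lmFit, eBayes, two-sided, Benjamini-Hochberg over 5989 probes), and the fit was tested on simulated data. The number of arrays limits the precision, the median standard error being 0.45. Every family member was described. From the pathway lists hormones, receptors, receptor substrates and the 3 smallest p were named, with up to 3 most similar probes per member. Members and lists were chosen with earlier results of these data known. Product names carried no identifier that matched the reference gene table, so no genome coordinates or sequences are given, only probe positions on contigs.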

Additional observations from a re-analysis of the deposited data

How the results depend on the processing

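No member passed the adjusted threshold under any of the settings tried, and the direction of each member's change turned under at least 3 of them. With normexp the acid labile chain changed by -0.18. In that setting its highest level was -0.80 in control 4, the array where its spots disagreed. The first CYR61 probe was at -0.070 with quantile normalization and -0.091 in the deposited log2 table. Array weights gave -0.21 for IGFBP-7, -0.15 for the IGF-II receptor and -0.046 for the second CYR61 probe. The slide row as a block gave -0.24 for both IGFBP-7 and the acid labile chain. Row 1 alone, with 1 control, gave -0.10 and -1.08 for these. Row 2 alone, with 1 DHT50 array, gave a member median of -0.23, with IGFBP-7 at -0.38, the IGF-II receptor at -0.081, CYR61 at -0.38 and -0.43, connective tissue growth factor at -0.17 and insulin at 0.12. In both rows the lone array was assumed to vary like the others. Brightness as a covariate gave a median of -0.34, with IGFBP-1 at -0.49, the IGF-II receptor at -0.19, CYR61 at -0.55 and -0.57, connective tissue growth factor at -1.07 and somatostatin I at -0.0013. Without control 1 and DHT50 2 together the median was -0.28, with IGFBP-1 at -0.27, IGFBP-7 at -0.061, the IGF-II receptor at -0.29, CYR61 at -0.48 and -0.53 and connective tissue growth factor at -1.04. The cause was not tested.

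With 1 array left out at a time, the member median ran from -0.16 to 0.42, IGFBP-1 from -0.099 to 0.94, IGFBP-7 from -0.21 to 0.37, the acid labile chain from -0.023 to 0.78, the IGF-II receptor from -0.051 to 0.38, and CYR61 from -0.35 to 0.81 and from -0.38 to 0.61. Connective tissue growth factor ran from -0.36 to 1.25. The other 10 pathway genes followed kept their direction when any 1 array was left out, but their sizes moved. Somatostatin II ran from 0.34 to 1.14, relaxin receptor 2 from 0.36 to 1.16, insulin receptor substrate 2 from 0.21 to 0.78 and phosphatidylinositol 3-kinase 3 from 0.57 to 1.504. GRB10 and the dimmer GRB2 probe were not followed under these settings. Without DHT50 1, 6 of the named pathway genes had an unadjusted p under 0.05 in limma, the lowest being 0.00898 for relaxin receptor 2 and 0.0116 for phosphatidylinositol 3-kinase 3, and so did the latter with the replicate block (0.0185), GRB2 with the row block (0.0356), relaxin receptor 2 in row 2 alone (0.0222), and relaxin receptor 2, mTOR and phosphatidylinositol 3-kinase 3 with array weights (0.0260 to 0.0360). Over all 5989 tested probes, the limma count at an unadjusted p under 0.05 was 282 in the reported fit. It was 597 with the replicate block, 393 with the row block and 1279 with array weights. The count without DHT50 1 lies in the range given below for 1 array left out. Its own value is not given, so the 6 genes cannot be weighed against all probes in that fit. With DHT50 1 left out, every DHT50 array was dimmer than every control, so group and brightness cannot be told apart there. The lowest adjusted p among the pathway genes followed here was 0.174 under any setting.

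Over all tested probes, the count at an unadjusted p under 0.05, 282 in the reported fit, was 81 with normexp, 1279 with array weights, 426 in row 1 alone, 160 without control 1 and DHT50 2, and 137 to 1389 with 1 array left out. In row 1 alone 106 probes passed the adjusted threshold. With array weights 1 member, the acid labile chain, had an unadjusted p under 0.05. Same-numbered control and DHT50 arrays correlated in their deviations at 0.20, 0.16, 0.38 and -0.11. DHT50 1, DHT50 2 and DHT50 3 each correlated best with the control of their own number, and DHT50 4 with control 2 (0.22). These values do not settle whether the numbers mark pairs. The reported fit used the 2 groups of the labels without pairs. With the replicate number as a block the count was 597 with 0 members, and not every array correlated best with its own number. The dim acid labile chain and the first CYR61 probe were limited by signal over background, with both spots well above it on 5 and 7 of the 8 arrays.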
